A study of Homo sapiens with 34 samples.

Results

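The mesenchymal state genes of neuroblastoma considered here were 10 of 19970 protein-coding genes annotated on chromosomes 1 to 22 and X: the transcription factors PRRX1, TWIST1, SNAI2, FOSL1 and FOSL2, the co-activators WWTR1 (TAZ) and YAP1, the receptor NOTCH2, and the structural and surface genes VIM and CD44. They were taken by name and not by a cut-off on the peak lists, although earlier results of these data were known when they were chosen. Their start sites and bodies came from the GENCODE annotation of hg38. The study asked how the chromatin of neuroblastoma cells responds when the co-repressor RUNX1T1 is depleted. It profiled 5 histone marks (H3K4me1, H3K4me2, H3K4me3, H3K27ac and H3K27me3) by ChIP-seq in KELLY cells. Each mark had 3 libraries per treatment, which gave 30 lists of called peaks, and 4 input libraries were named in the labels.

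KELLY is a human neuroblastoma cell line with amplified MYCN, grown in culture. Per the study's methods the cells carried a doxycycline-inducible shRNA against RUNX1T1, so control and knockdown cells differed in what was added to the medium and not in genotype. The study made lines with more than 1 such construct, and which of them gave these libraries is not given in the sources used here. Control cells received the solvent DMSO and knockdown cells received doxycycline, both for 72 h. Doxycycline without the shRNA was not analysed here, so an effect of the drug and an effect of RUNX1T1 loss cannot be told apart. The peak lists hold no measure of RUNX1T1 RNA or protein, and the knockdown could not be checked from them. The labels do not say whether same-group libraries came from separate cultures, so the p-values below measure the spread between these samples, which may be technical.

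Neuroblastoma cells occur in an adrenergic state, built on factors such as HAND2 and GATA3, and in a mesenchymal state that resembles neural crest or fibroblast-like cells, with PRRX1, AP-1 factors, YAP and TAZ, and NOTCH signalling among its known drivers. Active start sites usually carry H3K4me3 and H3K27ac. H3K27me3 is placed by Polycomb repressive complex 2 at silent developmental genes, where it can lie together with H3K4me3 at CpG-rich promoters. Away from start sites, H3K4me1 and H3K4me2 mark regulatory regions, and H3K27ac is found at those in use.

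Doxycycline libraries were called at a lower depth than DMSO libraries. The depth at which MACS2 set a library against its input ran from 57.0 to 63.4 M reads (M, a count in units of 10 to the power 6) for doxycycline, and for DMSO from 71.9 to 81.1 M, so depth and treatment cannot be told apart. In the H3K4me1 lists, the total length called was 253, 178 and 203 Mb in DMSO replicates 1, 2 and 3 and 221, 155 and 170 Mb in doxycycline replicates 1, 2 and 3, lower in each same-numbered pair. The H3K27me3 libraries were of 2 kinds that did not follow the treatment. The caller estimated fragments of 256 to 280 bp in DMSO 1, doxycycline 1 and doxycycline 2, whose lists covered 306 to 369 Mb, and of 105 to 112 bp in DMSO 2, DMSO 3 and doxycycline 3, whose lists covered 123 to 131 Mb.

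The promoters of 4 members are shown as examples of the sequence under these marks. Bases before the canonical start are given 5′ to 3′ on the coding strand, from RefSeq on GRCh38.p14. Each CG dinucleotide is in capitals, because H3K27me3 and H3K4me3 are known to meet at CpG-rich promoters. VIM lies at chr10:17227991-17228240 on the plus strand, YAP1 at chr11:102110197-102110446 on the plus strand, and NOTCH2 at chr1:120069663-120069912 on the minus strand, and these 3 genes had H3K4me3 and H3K27me3 at their start sites. FOSL2, at chr2:28392608-28392801 on the plus strand, had H3K4me3 and H3K27ac, and only the 194 bases outside annotated FOSL2 exons are shown. These bases do not reach the canonical FOSL2 start at 28392858, and they lie within the annotated body, which begins at 28392448.
VIM: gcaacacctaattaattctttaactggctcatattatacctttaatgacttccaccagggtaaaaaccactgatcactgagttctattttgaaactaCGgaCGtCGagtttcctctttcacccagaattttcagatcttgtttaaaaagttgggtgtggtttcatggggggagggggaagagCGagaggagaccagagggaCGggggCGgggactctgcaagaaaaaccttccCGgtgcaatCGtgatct
YAP1: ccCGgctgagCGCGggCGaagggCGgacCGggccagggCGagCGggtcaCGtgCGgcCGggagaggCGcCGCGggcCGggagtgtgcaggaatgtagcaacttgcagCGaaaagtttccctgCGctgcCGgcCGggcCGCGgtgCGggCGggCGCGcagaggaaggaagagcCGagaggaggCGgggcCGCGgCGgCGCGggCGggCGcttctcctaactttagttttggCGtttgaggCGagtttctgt
NOTCH2: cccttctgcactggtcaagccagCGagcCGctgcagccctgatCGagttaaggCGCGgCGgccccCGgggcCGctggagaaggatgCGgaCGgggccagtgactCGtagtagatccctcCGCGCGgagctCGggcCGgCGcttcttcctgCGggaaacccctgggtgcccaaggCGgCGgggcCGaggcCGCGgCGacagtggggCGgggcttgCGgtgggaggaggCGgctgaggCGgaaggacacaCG
FOSL2: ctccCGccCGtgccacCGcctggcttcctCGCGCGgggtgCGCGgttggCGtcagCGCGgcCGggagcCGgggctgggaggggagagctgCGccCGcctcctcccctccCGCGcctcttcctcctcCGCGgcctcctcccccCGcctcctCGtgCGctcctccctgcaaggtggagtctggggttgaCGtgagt

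RefSeq promoters of 300 bases (250 before the start and 50 after it) were matched for 7 of the 10 members, with 8 entries because WWTR1 has a pair of them. TWIST1, SNAI2 and FOSL1 were not among them. The 300 bases held 40 CG dinucleotides in YAP1, 33 in NOTCH2, 29 in FOSL2, 18 in CD44 and at the main WWTR1 start, 11 in PRRX1 and 10 in VIM, against a median of 14 over 35116 promoters of this length. The second WWTR1 start held 1. The CG count thus ran from below to above the median among members that shared H3K4me3 and H3K27me3. An AP-1 motif (TGANTCA, the same on both strands) was found in 1 of the 8 windows, FOSL2, and is held by 7.71% of all promoters. A TEAD motif (GGAATG on either strand) was found in 1 window, YAP1, and 14.0% of all promoters hold it. E-box letters (CANNTG, the same on both strands), present in 68.7% of all promoters, were found in FOSL2, YAP1 and the second WWTR1 window. Each motif was counted on its own, without regard to overlap with another.

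H3K4me3 lay within 1 kb of a start site at all 10 members in all 6 libraries, whereas H3K27ac lay there in all 6 libraries at TWIST1 and FOSL2 only. H3K27me3 was present in all 6 libraries at 7 members, PRRX1, FOSL1, WWTR1, YAP1, NOTCH2, VIM and CD44, and in none at TWIST1, SNAI2 and FOSL2. Over all 19970 genes, 20.1% had H3K27me3 and 64.2% had H3K27ac at a start site in all 6 libraries. Presence was scored at any annotated start of a gene, of which CD44 has 35, VIM 9 and YAP1 7, so marks of 1 gene may lie at different starts. By this score the members fell into 4 states. PRRX1, FOSL1, WWTR1 and NOTCH2 had H3K4me3 and H3K27me3 with no H3K27ac in any library, a state shared by 965 genes (4.83%). YAP1, VIM and CD44 had the same pair with H3K27ac in 1 to 5 of 6 libraries, as did 369 genes (1.85%). TWIST1 and FOSL2 had H3K4me3 and H3K27ac without H3K27me3, like 10171 genes (50.9%). SNAI2 had H3K4me3 with no H3K27me3 and an H3K27ac peak in 1 library, a state of 227 genes (1.14%). 

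**Figure D1:**
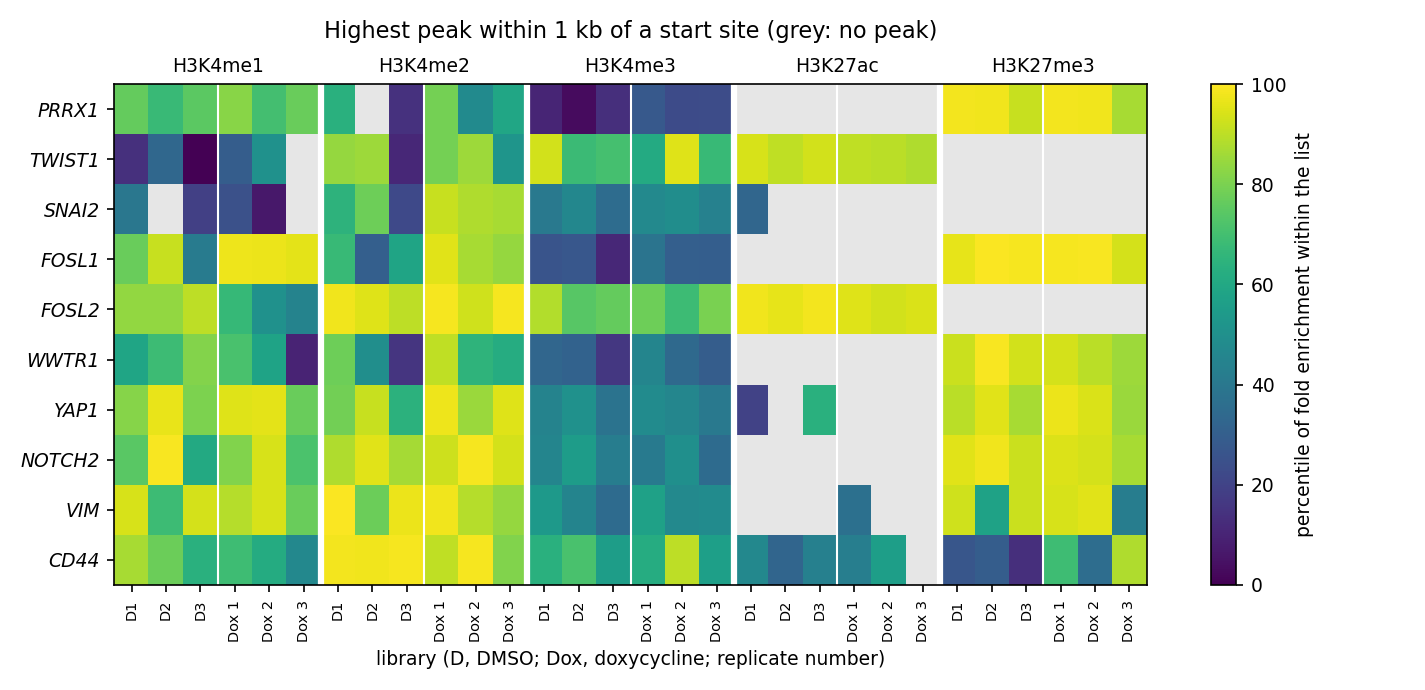
Each cell gives, for a member (row) and a library (column), the percentile within that library's list of the fold enrichment of the highest peak within 1 kb of a start site, and grey means that no peak was called. The H3K27ac block is filled for TWIST1 and FOSL2, the H3K27me3 block for the 7 other members apart from SNAI2, and the H3K4me3 block for all 10.

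No member gained or lost a start-site peak with the treatment. A gene was counted as separating where a peak lay within 1 kb of a start site in 3 of 3 libraries of one treatment and 0 of 3 of the other, and 0 of 10 members did so for any of the 5 marks. Of genes with a peak in any library, 0.383% separated for H3K4me1, 0.0374% for H3K4me2, 0.174% for H3K4me3, 0.462% for H3K27ac and 0.535% for H3K27me3, so that a count of 0 among 10 genes is near the background. The nearest case was H3K27ac at YAP1, called in DMSO replicates 1 and 3 and in no doxycycline library. With windows of 2.5 kb in place of 1 kb, YAP1 had the mark in all 3 DMSO libraries and in none with doxycycline. The wider windows take in a region at chr11:102229130-102229956, found in every DMSO library and in no doxycycline library, 2.16 kb from the nearest annotated start. It lies near the end of the YAP1 body, which ends at 102233424, and not at the canonical start at 102110447.

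The factors that drive epithelial-to-mesenchymal transition were in opposite states. TWIST1 (chr7:19020991-19117636, minus strand), a basic helix-loop-helix factor of mesoderm and neural crest, had the widest start-site H3K27ac peak among the members in each library. Widths here and below are summed over all merged peaks that touch the 1 kb either side of any annotated start of the gene. A width can therefore hold more than 1 peak. The start-site H3K27ac of TWIST1 was 14.7, 12.5 and 14.3 kb wide in DMSO replicates 1 to 3 and 13.5, 13.4 and 12.2 kb in doxycycline replicates 1 to 3. The H3K4me3 peak measured 6.40, 6.44 and 6.06 kb in DMSO and 6.31, 6.50 and 5.82 kb in doxycycline. Both ranges of width overlapped between treatments. The fold enrichment of the H3K27ac peak stood at the 93.9th, 90.6th and 93.0th percentile of the DMSO lists and at the 90.4th, 89.7th and 88.0th percentile of the doxycycline lists, and these did not overlap.

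PRRX1 (chr1:170662728-170739421, plus strand), a paired-related homeobox factor that can move adrenergic cells towards the mesenchymal state, was the reverse. Its start sites lay in H3K27me3 of 57.5, 17.9 and 17.3 kb in DMSO and 57.6, 53.0 and 22.4 kb in doxycycline, the wide values being those of the libraries with long fragment estimates. H3K27me3 covered 32.8% to 78.7% of the gene body in DMSO and 43.2% to 81.4% in doxycycline. H3K4me3 at PRRX1 was narrow and ranked low, at 0.682, 0.537 and 0.685 kb in DMSO and 1.35, 1.396 and 0.838 kb in doxycycline. All 3 doxycycline widths exceeded all 3 DMSO widths, but those of doxycycline replicates 1 and 2 were each the sum of 2 peaks. The fold enrichment of the highest peak ranked at the 27.9th, 22.97th and 23.2nd percentile against the 10.3rd, 2.996th and 13.6th. The difference in mean log2 width was 0.88 (exact two-sided permutation test, p = 0.1, the smallest that 3 against 3 allows, and 1 after Benjamini-Hochberg adjustment over 36 pairs).

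SNAI2 (chr8:48917598-48921740, minus strand), the zinc-finger factor SLUG, carried H3K4me3 of 1.09 to 1.57 kb and H3K4me2 of 0.878 to 1.79 kb in every library and neither a broad H3K27ac domain nor H3K27me3. One H3K27ac peak, of 0.711 kb, touched its start site, in DMSO replicate 1. The H3K4me2 peak ranked at the 64.7th, 77.9th and 22.1st percentile in DMSO and at the 91.6th, 88.0th and 87.0th percentile in doxycycline, without overlap. 

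The AP-1 subunits, FOS-family proteins that pair with JUN proteins, also differed from each other. FOSL2 (chr2:28392448-28417317, plus strand) had H3K27ac of 7.06, 7.08 and 5.44 kb in DMSO and 6.79, 6.56 and 6.49 kb in doxycycline, with fold enrichment at the 98.0th, 96.2nd and 98.2nd percentile in DMSO and the 94.97th, 93.3rd and 94.4th in doxycycline. The ranks, not the widths, fell apart by treatment. H3K4me1 around the FOSL2 starts ranked at the 83.7th, 83.7th and 90.2nd percentile in DMSO and at the 67.1st, 50.6th and 44.6th in doxycycline, again without overlap, and at the canonical start alone H3K4me1 was called only in DMSO replicate 1.

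FOSL1 (chr11:65892049-65900573, minus strand) lay in H3K27me3 of 15.7, 7.25 and 3.41 kb in DMSO and 16.6, 15.7 and 6.36 kb in doxycycline, which ranked at the 93.7th percentile or higher in every list. The H3K4 methylation marks at its start site ranked higher in all doxycycline libraries than in all DMSO libraries. For H3K4me1 the percentiles were 77.2, 91.8 and 41.8 in DMSO and 97.3, 97.2 and 96.0 in doxycycline, for H3K4me2 67.3, 30.2 and 58.3 against 95.4, 87.1 and 84.1, and for H3K4me3 25.9, 27.2 and 11.1 against 38.6, 30.4 and 29.98. The H3K27ac that covered 19.1% to 24.5% of the FOSL1 body belonged to a region at chr11:65886973-65894135 that also holds the start sites of FIBP and CCDC85B and ended more than 1 kb from those of FOSL1.

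The co-activators WWTR1 and YAP1, which do not bind DNA themselves and are brought to their targets by TEAD factors, both had H3K4me3 and H3K27me3 at their start sites in all 6 libraries, and YAP1 alone of the pair had H3K27ac there, in 2 DMSO libraries. WWTR1 (chr3:149517235-149736714, minus strand) had start-site H3K27me3 of 94.1, 14.6 and 7.97 kb in DMSO and 131, 119 and 5.50 kb in doxycycline, and 23.6% to 83.4% of its body was covered over the 6 libraries. YAP1 (chr11:102110447-102233424, plus strand) had more compact start-site H3K27me3 of 14.9, 4.44 and 4.10 kb in DMSO and 11.9, 11.7 and 3.17 kb in doxycycline, and 1.70% to 6.63% of its body was covered. The H3K4me3 peak at YAP1 was 2.41, 2.35 and 2.37 kb wide in DMSO and 2.13, 2.26 and 1.96 kb in doxycycline, narrower in all 3 doxycycline libraries (exact two-sided permutation test, p = 0.1, and 1 after adjustment).

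NOTCH2 (chr1:119911553-120100779, minus strand), a receptor whose cleaved intracellular part acts with RBPJ, had the largest summed width of start-site H3K27me3 of the members in the 3 libraries with long fragment estimates. This width was 189, 17.2 and 11.1 kb in DMSO and 201, 214 and 16.5 kb in doxycycline, and H3K27me3 covered 33.1% to 93.7% of the body. NOTCH2 has near-identical copies elsewhere on chromosome 1, so reads that cannot be placed may be missing from its locus. VIM (chr10:17228241-17237593, plus strand), the intermediate filament vimentin, had H3K27me3 of 5.003, 2.93 and 2.46 kb in DMSO and 4.61, 5.80 and 2.75 kb in doxycycline, on top of H3K4me3 of 2.58 to 2.78 kb. CD44 (chr11:35138882-35232402, plus strand), a hyaluronan receptor, had narrow peaks of both H3K27ac (0.467 to 1.28 kb in 5 of 6 libraries) and H3K27me3 (0.430 to 1.61 kb in all 6). At a q-value of 0.001 or less, H3K27me3 was left at CD44 in no DMSO library and in doxycycline replicates 1 and 3.

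**Figure D2:**
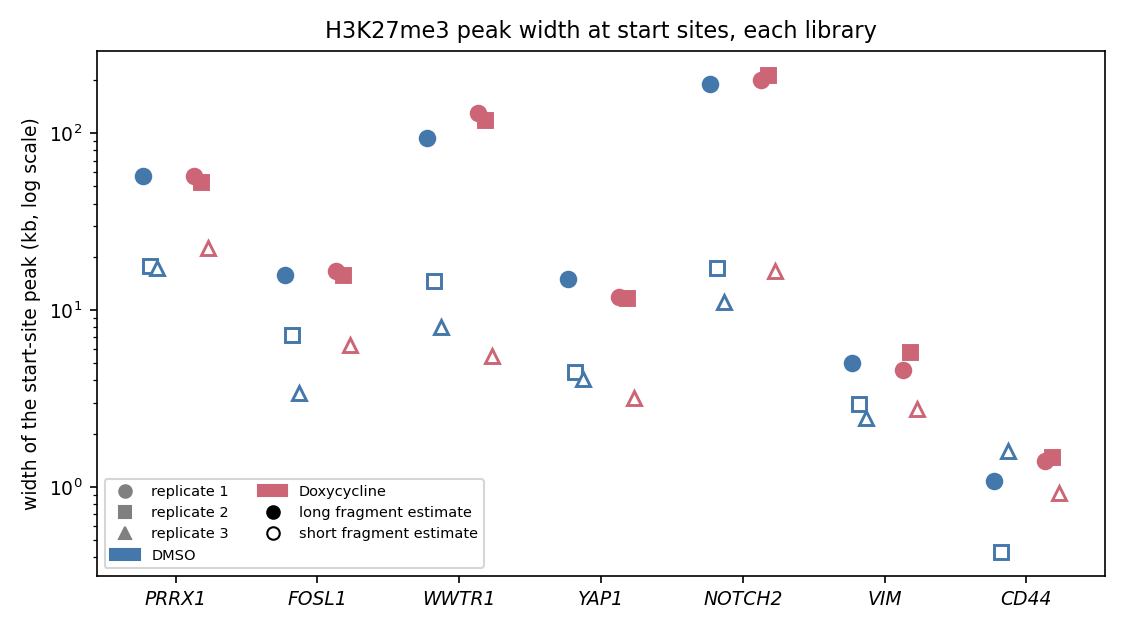
The summed width in kb (log scale) of the H3K27me3 peaks at the start sites is plotted for each of the 6 libraries and the 7 members that had them. DMSO is in blue and doxycycline in red, with filled symbols for libraries with long fragment estimates and open symbols for short ones. Filled and open symbols stand apart at PRRX1, FOSL1, WWTR1, YAP1, NOTCH2 and VIM, and overlap at CD44.

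Over all start-site peaks, 36 pairs of a member and a mark had a peak in all 6 libraries. Widths did not overlap between treatments in 2 of them, both H3K4me3 and both named above (PRRX1 wider, YAP1 narrower with doxycycline), against 8.3% of such pairs over all genes. Ranks did not overlap in 9 pairs, 6 higher and 3 lower with doxycycline, against 14.7% over all genes. The 6 higher were H3K4me3 at PRRX1, H3K4me2 at SNAI2, the 3 H3K4 marks at FOSL1 and H3K27me3 at CD44, and the 3 lower were H3K27ac at TWIST1 and FOSL2 and H3K4me1 at FOSL2. None passed the test, since the exact permutation p was 0.1 for each and the smallest adjusted p was 0.4. A rank also depends on how many peaks a list holds, and the doxycycline lists were shorter in most pairs.

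Beyond the start sites, H3K27ac differed between the members. Merged over the 6 lists, 33 H3K27ac regions found in all 6 libraries lay in the bodies of the members or within 100 kb. Of these, 2 were at the start sites of TWIST1 and FOSL2, 12 were at start sites of other coding genes and 19 were at none. FOSL2 had 5 of the 19, TWIST1 4, YAP1 and CD44 3 each, NOTCH2 2, and PRRX1 and FOSL1 1 each. At WWTR1 and VIM the mark lay only at neighbours, COMMD2 and RNF13 beside WWTR1 and TRDMT1 beside VIM, and SNAI2 had no H3K27ac region in all 6 libraries.

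The 4 distal regions of TWIST1 were centred 27.5, 61.2, 94.9 and 123 kb from its canonical start in the direction of transcription. The last, chr7:18991967-18997011, overlaps an exon of HDAC9, a histone deacetylase gene next to TWIST1, and the other 3 lie within long annotated TWIST1 transcripts. Each carried H3K4me1 in all 6 libraries and none carried H3K27me3 in any. FOSL2 had a block of 13.1 kb at chr2:28354931-28368035, centred 31.4 kb before its start in intergenic sequence. PRRX1, whose start lacked H3K27ac, had 1 such region at chr1:170590718-170595073, centred 71.2 kb before its start, with H3K4me1 and H3K4me2 in all 6 libraries and H3K4me3 in each DMSO library and in no doxycycline library.

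**Figure D3:**
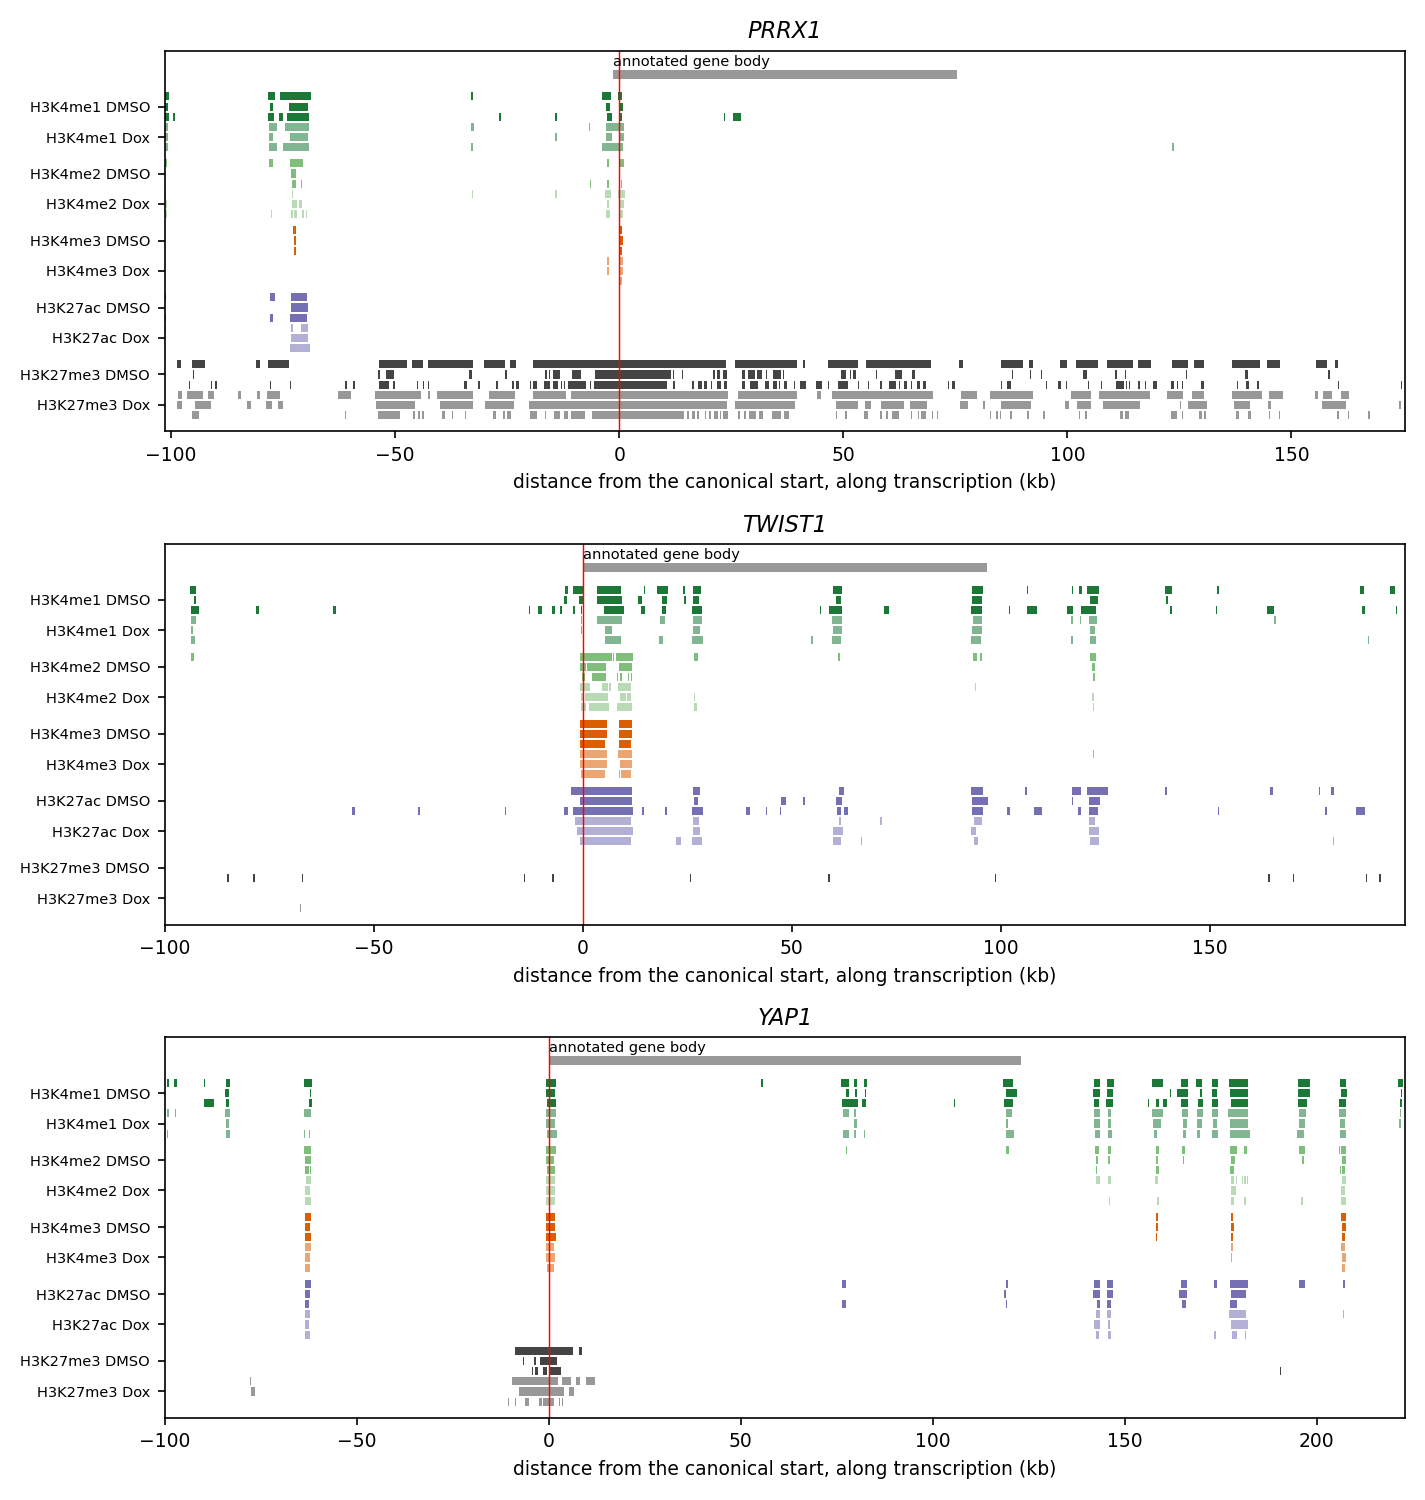
Called peaks (bars, 1 row per library, dark for DMSO and pale for doxycycline) are drawn by distance in kb from the canonical start (red line) along the direction of transcription for PRRX1, TWIST1 and YAP1. PRRX1 lies in H3K27me3 with an active region 71.2 kb before the start, TWIST1 lies in H3K27ac with 4 distal regions downstream, and YAP1 has H3K27me3 at its start and H3K27ac downstream of its body.

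Where H3K4me1 was found in all 3 libraries of a treatment without H3K4me3, the distal regions of the members were sorted by the other marks. In DMSO, 24 overlapped H3K27ac (active), 37 overlapped neither H3K27ac nor H3K27me3 (primed) and 6 overlapped H3K27me3 (poised). With doxycycline, 17 were active, 27 primed and 4 poised. Over the genome, active regions numbered 21292 in DMSO and 17041 in doxycycline, primed regions 33612 and 30034, and poised regions 2160 and 3018. FOSL2 held the most of any member, 8 active and 10 primed in DMSO and 5 active and 9 primed in doxycycline, and VIM held none in either treatment. These counts rest on peaks present in all 3 libraries, from lists whose depth differed between treatments, and were not tested. The paper reports more active and more primed regions after RUNX1T1 loss and no change in poised ones. Its counts are of sites where RUNX1T1 binds, a different set from the regions counted here.

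Regions that separated by treatment at the members were all lost with doxycycline. Their counts are given beside the shares over the genome, and the difference was not tested. Of 102 H3K27ac regions in the 10 loci, 6 were found in every DMSO library and in no doxycycline library, and 0 were gained, while 3.3% of H3K27ac regions separated in either direction over the genome. For H3K4me1 the count was 4 of 217 beside 1.77%, for H3K4me2 2 of 108 beside 0.471%, for H3K4me3 2 of 35 beside 1.34%, and for H3K27me3 0 of 147 beside 0.458%. Over the genome, lost regions also outnumbered gained ones for H3K27ac (2715 and 602), H3K4me1 (2738 and 590), H3K4me2 (300 and 185) and H3K4me3 (266 and 134), whereas for H3K27me3 48 were lost and 522 gained. The lost H3K27ac region with the highest mean q-value percentile was chr11:65817864-65818230, intergenic, 82.2 kb from the nearest FOSL1 start. Its counterpart for H3K4me1 was chr11:65988682-65989684, intergenic, 88.1 kb from FOSL1, which lies in the H3K27ac region that stayed in all 6 libraries there. For H3K4me2 it was chr11:35038479-35039253, 99.6 kb from CD44 in an exon of a gene known only as ENSG00000289526, and for H3K4me3 it was chr11:102268654-102269180, intergenic, 41.7 kb from YAP1. YAP1 held 2 of the 6 lost H3K27ac regions, and TWIST1, SNAI2, FOSL1 and CD44 held 1 each.

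The length covered by peaks over each gene body and 100 kb either side was then compared between treatments with limma on log2 of the covered kb plus 1, over every gene covered in at least 3 of the 6 libraries, with Benjamini-Hochberg adjustment. No member passed an adjusted p of 0.05 in any mark. Of all genes tested, 3.32% passed for H3K27ac, 0.255% for H3K4me1, 0.0105% for H3K4me2, 0% for H3K4me3 and 0% for H3K27me3, so that a count of 0 among 10 members is near the background in each mark. At an unadjusted p under 0.05, 532 genes were reached for H3K4me3 and 43 for H3K27me3.

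Same-numbered libraries deviated together for 4 of the 5 marks, and with the replicate number as a block 8 pairs of a member and a mark passed, all lower with doxycycline. For H3K4me1 these were TWIST1, CD44, YAP1, FOSL2 and VIM, beside 21.3% of all genes called lower in that fit. For H3K27ac they were SNAI2 and YAP1, beside 11.4%, and for H3K4me3 YAP1, beside 1.68%. Because the total length called differed between lists, lower with doxycycline in all 3 pairs for H3K4me1 and H3K27ac, in 2 of 3 for H3K4me2 and H3K4me3 and in 0 of 3 for H3K27me3, the values were also divided by each list's total. The median over all genes then moved from -0.14 to 0.06 for H3K4me1 and from -0.04 to 0.05 for H3K27ac on the log2 scale. In that scaled fit with the block, TWIST1 alone remained for H3K4me1 (5.24% of all genes lower), SNAI2 and YAP1 remained for H3K27ac (8.39%), and YAP1 remained for H3K4me3 (3.57%).

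TWIST1 had the largest H3K4me1 difference of the members. H3K4me1 covered 28.3, 18.1 and 34.3 kb in DMSO replicates 1, 2 and 3 and 18.6, 9.92 and 15.8 kb in doxycycline replicates 1, 2 and 3. Every same-numbered pair was lower with doxycycline although the groups overlapped, DMSO replicate 2 lying just below doxycycline replicate 1. The log2 difference was -0.82 ± 0.28 (SE, n = 3 per treatment, limma adjusted p = 0.299), and with the replicate block the SE was 0.12 and the adjusted p 0.000248. H3K27ac over the same locus measured 30.5, 23.4 and 35.0 kb in DMSO and 19.4, 21.2 and 21.3 kb in doxycycline, all below every DMSO value, with a log2 difference of -0.48 ± 0.21 (SE, limma adjusted p = 0.320, and 0.0501 with the block), which did not pass.

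YAP1 was the only member that passed in more than 1 mark with the block. Its H3K27ac coverage was 15.0, 11.2 and 7.12 kb in DMSO and 8.12, 7.77 and 5.03 kb in doxycycline, lower in each pair with overlapping groups. The log2 difference was -0.57 ± 0.26 (SE, limma adjusted p = 0.373), with an adjusted p of 0.0253 under the block. Without DMSO replicate 1 and without the block the difference was -0.34 (limma adjusted p = 0.774), and with 50 kb either side it was -1.12 (0.0163). For H3K4me3 the coverage was 5.92, 6.17 and 5.58 kb in DMSO and 5.22, 5.11 and 4.17 kb in doxycycline, without overlap, and the log2 difference was -0.24 ± 0.09 (SE, limma adjusted p = 1.00, and 0.0443 with the block), or -0.16 without doxycycline replicate 3 (0.662 without the block). H3K4me1 at YAP1 fell by 0.37 on the log2 scale with the block (limma adjusted p = 0.00889), but not once the lists were scaled (limma adjusted p = 0.270).

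SNAI2 had the least H3K27ac of the members in each library. It covered 2.54, 1.02 and 0.929 kb of the locus in DMSO and 0.859, 0 and 0 kb in doxycycline, without overlap, and the log2 difference was -0.96 ± 0.31 (SE, limma adjusted p = 0.147, and 0.00552 with the block). The size depended on the constant added before the log, and was -2.77 with 0.1 kb in place of 1 kb (limma adjusted p = 0.155 without the block). The region lost in all 3 doxycycline libraries lay 96.1 kb from the SNAI2 start, at chr8:49017851-49018990, in intergenic sequence. With 50 kb either side, in the gene body alone or at a q-value of 0.001 or less, SNAI2 was covered in too few libraries to be tested for H3K27ac. The H3K4me1 calls of 3 further members under the block also ended with scaling. CD44 fell by 0.49 (limma adjusted p = 0.00487 with the block, 0.0991 scaled as well), FOSL2 fell by 0.28 (0.0140, then 0.634) and VIM fell by 0.55 (0.0401, then 0.184) on the log2 scale. In each of these genes all 3 pairs were lower with doxycycline, VIM for instance at 10.6, 6.82 and 8.84 kb in DMSO and 7.52, 4.23 and 5.33 kb in doxycycline.

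**Figure D4:**
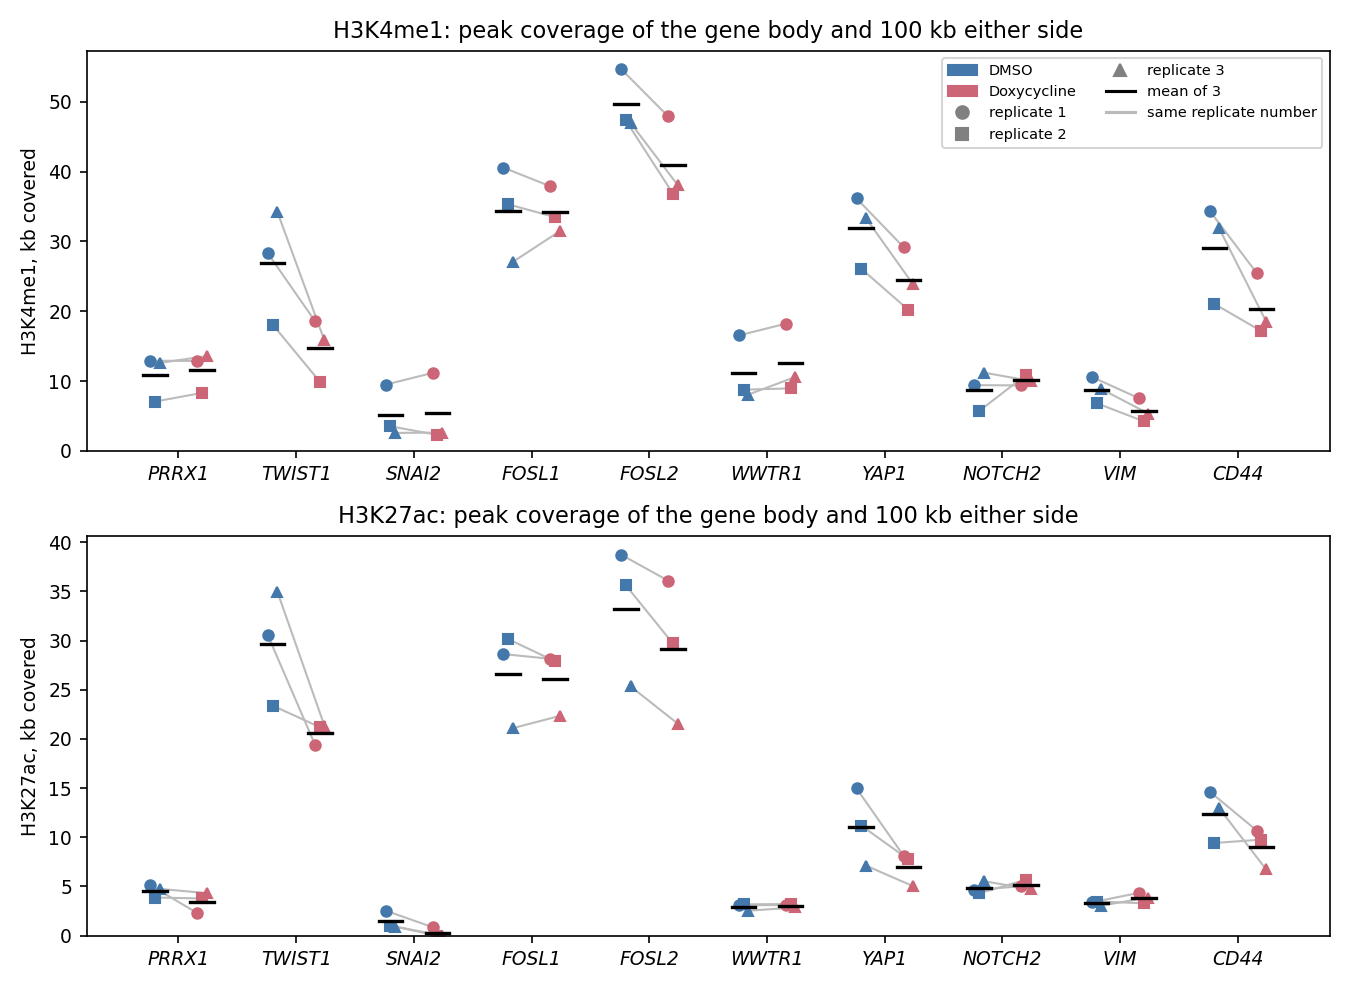
Kilobases covered by H3K4me1 (top) and H3K27ac (bottom) peaks over each member's body and 100 kb either side are plotted per library, with lines joining libraries of the same replicate number and bars at the mean of 3. The lines fall in all 3 pairs at TWIST1, FOSL2, YAP1, VIM and CD44 for H3K4me1, and at PRRX1, TWIST1, SNAI2, FOSL2 and YAP1 for H3K27ac.

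The members under H3K27me3 showed no passing difference in that mark. NOTCH2 was covered over 328, 133 and 162 kb in DMSO and 349, 335 and 201 kb in doxycycline, WWTR1 over 240, 91.2 and 80.1 kb against 264, 236 and 108 kb, and PRRX1 over 152, 39.8 and 64.4 kb against 166, 139 and 65.3 kb. All 3 doxycycline values exceeded the same-numbered DMSO values at these genes, and replicate 2 changed most, the pair that joins a short-fragment with a long-fragment library. With the fragment kind as a term, the log2 difference was 0.25 ± 0.12 for NOTCH2, 0.19 ± 0.10 for WWTR1 and 0.18 ± 0.19 for PRRX1 (SE, limma adjusted p = 1.00 for each). In that fit, the median over all genes was 0.04 and that over the 8 members tested 0.11. Without the fragment kind, these medians were 0.43 and 0.52. TWIST1 and SNAI2 were covered in fewer than 3 libraries and were not in this fit.

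**Figure D5:**
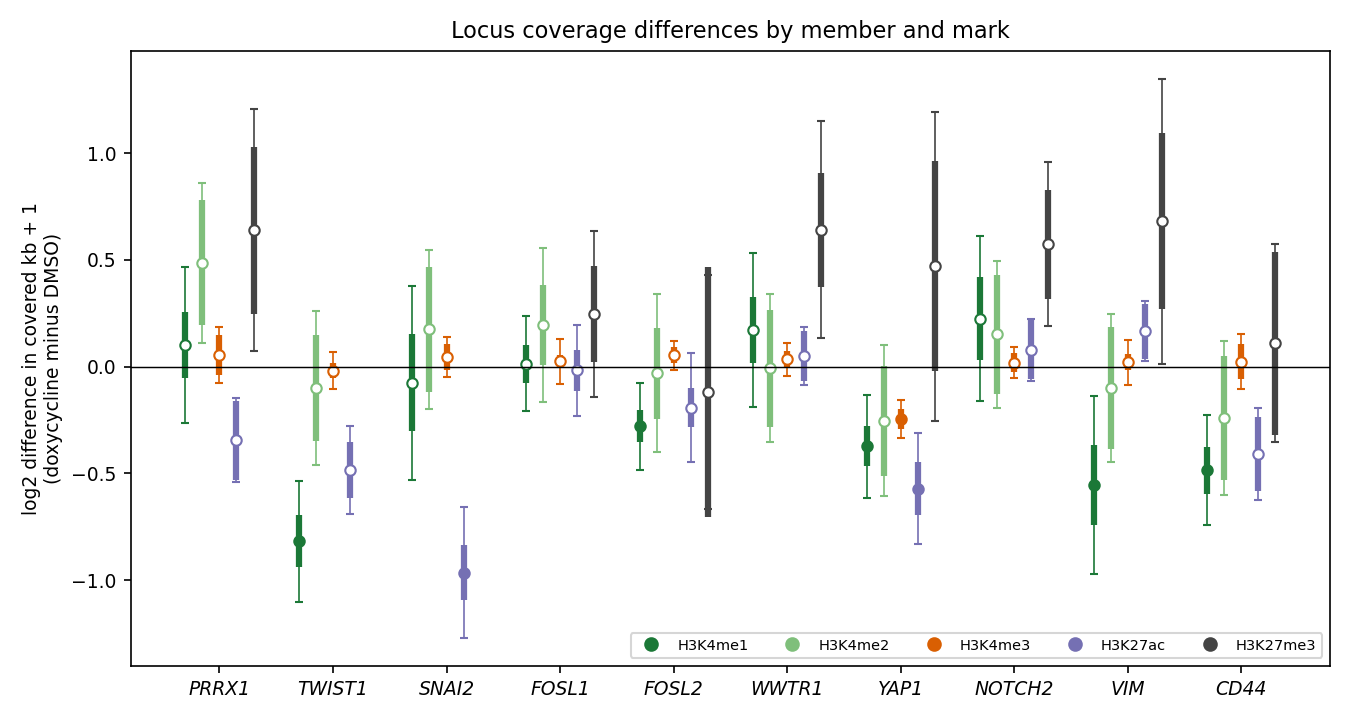
The log2 difference in covered kb plus 1 (doxycycline minus DMSO) is plotted for each member and mark with 1 SE without (thin bars) and with (thick bars) the replicate number as a term, and filled points passed an adjusted p of 0.05 with it. The 8 filled points, at TWIST1, SNAI2, FOSL2, YAP1, VIM and CD44, all lie below 0.

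The wider pathways were taken from lists of relatives and partners, where "H3K27ac without H3K27me3" means 6 of 6 libraries against none at a start site, as at 52.5% of all genes, and the reverse state was found at 14.3%. Of 7 other AP-1 genes, all had H3K4me3 in 6 of 6 libraries, 6 had H3K27ac in all 6, and FOS, JUN, JUNB and JUND had H3K27ac with no H3K27me3. Of 13 genes of the TEAD and YAP/TAZ pathway, 4 had H3K27ac without H3K27me3 (TEAD1, TEAD3, TEAD4 and the kinase LATS1) and 4 had H3K27me3 in all 6 libraries without H3K27ac (LATS2, the target genes CCN2 and AXL, and AMOTL2). AXL was the 1 gene of this list that separated at a start site, with H3K4me3 gained with doxycycline. Of 11 other Notch genes, 10 had H3K27ac in all 6 libraries, among them the ligand JAG2, RBPJ and the targets HES1, HEY1 and HEYL, and the receptor NOTCH1 shared the H3K27me3 state of NOTCH2. NOTCH3 gained a start-site H3K27me3 peak in 3 of 3 doxycycline libraries while it kept H3K27ac in all 6. None of the genes in these 3 lists passed the locus test without the block in any mark.

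Among 4 other EMT factors, SNAI1, ZEB1 and ZEB2 had H3K27ac without H3K27me3 and TWIST2 had H3K27me3 without H3K27ac. Of 16 further mesenchymal transcription factors, 6 had H3K27me3 without H3K27ac, including RUNX1, RUNX2 and MEOX2, and 5 had H3K27ac without H3K27me3. GLIS3, a zinc-finger factor with H3K27me3 and no H3K27ac at its start sites, fell in H3K27ac over its locus (log2 difference -1.99 ± 0.19, SE, n = 3 per treatment, limma adjusted p = 0.00168) and was the 1 gene of that list to pass without the block. Of 16 structural genes, 4 had H3K27ac without H3K27me3 and 2, THBS1 and CAV1, had the reverse. A group of 3 fell in H3K27ac over their loci, TGFBR2, a TGF-beta receptor (-1.24 ± 0.18, limma adjusted p = 0.00805), POSTN, periostin (-1.21 ± 0.24, 0.0327) and LUM, lumican (-1.33 ± 0.27, 0.0355), beside the 3.32% of all genes that passed. S100A6 gained a start-site H3K27ac peak in 3 of 3 doxycycline libraries.

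The adrenergic markers were all in 1 state, whereas the members were mixed. All 11, among them HAND2, GATA3, ISL1 and the noradrenaline synthesis genes DBH and TH, had H3K4me3 and H3K27ac at a start site in all 6 libraries and H3K27me3 in none. That state was held by 2 of the 10 members, TWIST1 and FOSL2, and by 50.9% of all genes. None passed the locus test without the block, and HAND2 gained a start-site H3K4me2 peak with doxycycline. Of 8 markers of blood, endothelial, epithelial and glial cells, CD3E and PECAM1 had H3K27me3 without H3K27ac, PTPRC, CD14 and CDH5 had no H3K27ac in any library, and the epithelial gene EPCAM and the glial factor SOX10 had H3K27ac in all 6.

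With the replicate block and no scaling, 2.65% of all genes were called higher for H3K4me1 beside the 21.3% lower. This balance turned with scaling, from 509 higher and 4082 lower to 1965 higher and 1006 lower, and the list counts that follow are from the unscaled values only. Coverage fell at 1 of 7 AP-1 genes, 4 of 13 TEAD and YAP/TAZ genes, 4 of 11 Notch genes, 2 of 4 EMT factors, 6 of 15 structural genes tested, 3 of 16 further transcription factors, 5 of 11 adrenergic markers and 1 of 8 markers of other cells. It rose at 1 TEAD and YAP/TAZ gene, AJUBA, and at 1 Notch gene, NOTCH1 (log2 difference 0.63 ± 0.07, SE, limma adjusted p = 3.2e-05). ZEB1, the zinc-finger repressor beside SNAI2 in the EMT group, fell by 0.74 on the log2 scale (limma adjusted p = 5.5e-05), and JUN, a partner of the FOSL proteins, fell by 0.57 (0.00148). For H3K27ac, where 3.79% of all genes were higher, 6 of 16 further transcription factors and 4 of 13 structural genes fell, and 1 to 2 genes fell in the TEAD, Notch, adrenergic and other-cell lists. None of the 7 AP-1 genes or 3 EMT factors tested passed for H3K27ac. For H3K4me3, where 1.22% were higher, NOTCH3 and SPARC fell and GATA2 rose.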

How the data were processed

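Per the paper's methods and the submitters' processing notes, the authors aligned the reads to hg38 with Bowtie2, kept reads above a mapping quality cut-off with SAMtools and called peaks in each library against an input with MACS2. The study's methods state a q-value cut-off, whereas the headers of the narrow lists give a p-value cut-off. Each deposited list gives, per peak, the pileup signal at the summit or over the region (reads piled up after scaling), the −log10 p-value and −log10 q-value of the caller, and the fold enrichment ratio over input. H3K4me1, H3K27ac and H3K27me3 lists were called as broad regions and the others as narrow peaks, per the file headers. Peaks were not pooled over replicates. The inputs named for replicates 1 and 3 had equal read totals in the file headers, so these calls may share an input.

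Peaks on chromosomes 1 to 22 and X were merged within a list and compared with GENCODE start sites (1 kb either side) and with gene bodies plus 100 kb either side, where an overlap of 1 bp counted. A width was the sum over the merged peaks touching a gene's start-site windows, and a percentile was that of the highest peak there. Widths and fold enrichment percentiles were compared by exact permutation over 20 assignments of 6 libraries. Covered kb were tested with limma 3.58.1 in R 4.3.3 after 1 kb was added before log2, and the script was tested on simulated data. Intervals were checked with bedtools 2.31.1. Correlations of the deviations of same-numbered libraries were 0.178 to 0.609 over 4 marks, all above 0.1, so the replicate number was taken to pair these samples, while for H3K27me3 they were 0.768, -0.191 and 0.581 and it was not. The members and the gene lists were chosen with earlier results of these data known. Genes named from the lists were those that separated at a start site or passed the locus test, and at most 4 per list with H3K27me3 and no H3K27ac. Regions were named as the 1 per mark and direction with the highest mean percentile of −log10 q. The distal H3K27ac regions, the lost SNAI2 region and the list genes named for H3K27ac without H3K27me3 or under the replicate block were chosen after their values were seen. The replicate block together with scaling to the list total, was an alternative chosen after seeing the data. Some genes of the lists are not reported here.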

Additional observations from a re-analysis of the deposited data

How the results depend on the processing

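At a q-value of 0.001 or less, CD44 kept H3K27me3 in 2 libraries and VIM in 4, and YAP1 kept H3K27ac in 1, in place of 6, 6 and 2. H3K27ac separated at 1 member, YAP1, with 2.5 kb windows, which reach a region near the end of its body. It separated at 0 to 1 members without each replicate number in turn. The replicate block raised the members called over their loci from 0 to 5 for H3K4me1, 1 for H3K4me3 and 2 for H3K27ac, and with scaling to the list total as well these were 1, 1 and 2. The block added no call for H3K4me2 or H3K27me3 members. For H3K27ac, 1 member passed with 250 kb either side (SNAI2), beside 5.57% of all genes. With 50 kb, 1 of the 7 members tested passed (YAP1), beside 2.35% of all genes. Leaving out each library in turn gave 0 to 1 members for H3K4me1 and 0 to 1 for H3K27ac. Without doxycycline replicate 1, TWIST1 passed for H3K4me1, beside 1.66% of all genes, and SNAI2 for H3K27ac, beside 3.68%. FOSL2 H3K4me1 turned to 0.018 on the log2 scale in the gene body alone, the 1 reversal among the 8 called pairs. Non-overlapping widths numbered 3 to 10 and ranks 11 to 15 with a library left out, against 2 and 9 with all libraries. With fewer libraries, treatments stand apart more easily. With the replicate block, 13 width pairs and 19 rank pairs moved the same way in all 3 numbers, for which the smallest exact p is 0.25. Shares over all genes were not worked out for these settings, so none of these counts is read as a result about the members.

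Counts over all genes depended on the setting, and the cause was not tested. H3K27ac calls numbered 603, and 1071 with 250 kb, 121 in gene bodies, 101 without the filter, 262 at the strict q, 1007 scaled, 2758 with the replicate block and 2821 with block and scaling. H3K4me1 calls numbered 49, and 14 with 250 kb, 13 with 50 kb, 0 in gene bodies, 94 with equal lists, 0 without the filter, 3 at the strict q, 29 scaled, 4591 with the replicate block and 2971 with both. H3K4me2 calls numbered 2, and 4 with 0.1 kb added, 8 with equal lists, 0 with 250 kb, 50 kb, gene bodies, no filter or scaling, 109 with the replicate block and 121 with both. H3K4me3 calls numbered 0, and 15 in gene bodies, 2 with equal lists, 1 without the filter, 233 scaled, 542 with the replicate block and 1493 with both. Without each library in turn they ranged from 152 to 666 for H3K27ac, 5 to 316 for H3K4me1, 0 to 47 for H3K4me2 and 0 to 16 for H3K4me3. Peaks near the caller's threshold depend on depth, which differed between treatments.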

Other observations

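The pattern of bases covered within 1 kb of the canonical start over the 30 libraries was compared between each member and every other coding gene by the mean absolute difference. The nearest were SRRM4 (19.7 bp) and GRM8 (26.1 bp) for FOSL2, BMAL2 (56.3 bp) and CRIM1 (64.8 bp) for NOTCH2, RSPO3 (58.2 bp) and SYDE2 (58.3 bp) for YAP1, and LHX6 (70.3 bp) and TFAP2E (73.7 bp) for FOSL1. The median distance to all genes was 574 bp for FOSL2 and 1076, 1057 and 1082 bp for the other 3. CD44 had no close neighbour, with IGSF21 nearest at 220 bp and PIERCE1 next at 234 bp against a median of 799 bp. For TWIST1 the nearest were BTBD1 (94.4 bp) and FABP5 (111 bp), for SNAI2 GCNT1 (119 bp) and TMEM45A (144 bp), for PRRX1 TMCO4 (139 bp) and N4BP3 (143 bp), for WWTR1 LRRK1 (103 bp) and PDGFB (104 bp), and for VIM PIFO (102 bp) and MYO15B (113 bp).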
